A study of Mus musculus with 229 samples.

Results

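Narrow stretches of open chromatin at the ends of genes were taken from the pooled ATAC-seq interval list of PDGFRa-GFP cells of the mouse cerebral cortex. They were chosen by the position and width of the called intervals, both measured in these data: intervals on chromosomes 1 to 19, under 1500 bp wide, whose edge lay within 1 kb of either end of a protein-coding gene span of mm10. The rule found 18185 intervals among 74909 unique intervals on those chromosomes, which is 24.3%, and among 76321 in the whole list. They lay at the ends of 12064 of 20665 protein-coding genes, here called marked genes. Another 1073 genes had only a wide interval of 1500 bp or more at an end, and 7528 genes had no interval within 1 kb of an end. A marked gene could also have a wide interval, as 782 did.

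The study sampled GFP-sorted cells of mouse cerebral cortex and cells of mouse glioblastoma by single-cell RNA sequencing, and GFP-sorted cortex cells by ATAC-seq. The PDGFRa-GFP reporter follows the promoter of Pdgfra, whose receptor binds platelet-derived growth factor and marks oligodendrocyte precursors, so the sort holds cells by reporter and not by type. The ATAC-seq samples are titled E14.5 and P5 and share 1 pooled list, so the stages cannot be told apart in it. RNA came from 1 Drop-seq library of PDGFRa-GFP cortex at P1-3, from C1 chip captures of 53 PDGFRa-GFP cells (P6) and 60 such cells (P3), and from 1 hGFAP-GFP Drop-seq library at P5-6, in which GFP follows a human GFAP promoter used by astrocytes and progenitors. The genotype field reads PDGFRa normal for the PDGFRa-GFP RNA groups and the E14.5 ATAC-seq sample, and hGFAP normal for the hGFAP-GFP library and the P5 ATAC-seq sample. The labels name no animals. They disagree with the titles for the C1 cells, which carry hGFAP-gfp in the strain field, and for the ATAC-seq samples, whose stage fields read P1-3 and P6, and the titles were followed. With 1 interval list, 1 library per Drop-seq group and no animal named for the C1 cells, every comparison is a description without a test.

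ATAC-seq inserts sequencing adapters where DNA is not covered by nucleosomes, and the starts of active genes are among the most open sites of a genome. Many starts lie in CpG islands, stretches rich in C, G and the dinucleotide CG that are open in most cell types, while starts poor in CG tend to be open only where the gene is used. Oligodendrocyte precursors divide, and express the transcription factors Olig1, Olig2 and Sox10 before they make myelin.

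The sequences before 8 gene starts are given as examples, chosen by name and not by a rule. The first 5 are marked genes of the precursor program and of cell division. The other 3 have no interval and belong to mature oligodendrocytes and microglia. Each run is RefSeq sequence of build GRCm38.p6, read 5′ to 3′ on the gene's strand, and ends at the base before the gene span. Capitals mark matches on either strand of 8 short strings: GGGCGG (the GC box), CCAAT (the CCAAT box), TATAAA (the TATA box), CCGGAAG (the core of ETS sites), GCGCATGC (the NRF1 core), AAGATGG (the YY1 core), CAGCTG (an E-box) and ACAATG (the core of Sox sites). Matches may overlap, and a match is a description and not a site.
Olig2, a transcription factor of the oligodendrocyte lineage, at chr16:91225300-91225549, plus strand: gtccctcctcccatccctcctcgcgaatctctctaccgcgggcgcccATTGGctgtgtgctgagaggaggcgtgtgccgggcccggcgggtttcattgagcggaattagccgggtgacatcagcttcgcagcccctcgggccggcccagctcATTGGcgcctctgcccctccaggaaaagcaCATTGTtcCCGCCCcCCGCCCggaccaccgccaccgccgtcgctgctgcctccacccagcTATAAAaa
Egfr, a growth factor receptor of early glial progenitors, at chr11:16751953-16752202, plus strand: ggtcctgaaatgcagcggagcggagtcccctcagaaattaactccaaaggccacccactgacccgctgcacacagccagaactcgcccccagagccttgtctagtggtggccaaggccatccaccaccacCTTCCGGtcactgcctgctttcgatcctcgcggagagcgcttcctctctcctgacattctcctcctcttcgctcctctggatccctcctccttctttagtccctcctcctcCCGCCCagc
Cspg4, the NG2 proteoglycan of precursor cells, at chr9:56864854-56865103, plus strand: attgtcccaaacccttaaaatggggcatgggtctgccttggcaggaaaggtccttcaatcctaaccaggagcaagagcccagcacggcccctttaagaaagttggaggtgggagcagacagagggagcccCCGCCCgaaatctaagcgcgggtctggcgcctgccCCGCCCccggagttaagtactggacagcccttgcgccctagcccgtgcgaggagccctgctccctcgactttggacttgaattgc
Mcm2, a subunit of the replicative helicase, at chr6:88898781-88899030, minus strand: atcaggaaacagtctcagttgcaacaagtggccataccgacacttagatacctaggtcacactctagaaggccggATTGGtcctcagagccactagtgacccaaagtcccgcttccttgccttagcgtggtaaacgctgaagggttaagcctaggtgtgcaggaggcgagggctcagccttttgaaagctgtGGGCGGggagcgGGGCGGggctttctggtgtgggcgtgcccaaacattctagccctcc
Top2a, the topoisomerase of dividing cells, at chr11:99024200-99024439, minus strand: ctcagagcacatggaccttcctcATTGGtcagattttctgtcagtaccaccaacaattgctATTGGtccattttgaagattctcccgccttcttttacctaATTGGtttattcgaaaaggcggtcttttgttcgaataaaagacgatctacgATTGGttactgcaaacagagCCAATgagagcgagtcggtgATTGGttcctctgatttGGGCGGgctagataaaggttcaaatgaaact
Mog, a glycoprotein of the myelin surface, at chr17:37023399-37023648, minus strand: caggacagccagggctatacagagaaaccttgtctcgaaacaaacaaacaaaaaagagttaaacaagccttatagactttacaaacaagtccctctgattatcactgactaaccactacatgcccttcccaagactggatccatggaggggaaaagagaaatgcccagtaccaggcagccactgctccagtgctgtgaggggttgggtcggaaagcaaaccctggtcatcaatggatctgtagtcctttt
Opalin, a membrane protein of mature oligodendrocytes, at chr19:41077114-41077363, minus strand: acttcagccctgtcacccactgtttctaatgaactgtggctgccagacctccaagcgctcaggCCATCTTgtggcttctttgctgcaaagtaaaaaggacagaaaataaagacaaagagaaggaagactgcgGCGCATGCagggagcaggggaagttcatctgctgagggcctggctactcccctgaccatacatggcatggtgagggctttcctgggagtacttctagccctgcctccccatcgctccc
Cx3cr1, a chemokine receptor of microglia, at chr9:120068297-120068546, minus strand: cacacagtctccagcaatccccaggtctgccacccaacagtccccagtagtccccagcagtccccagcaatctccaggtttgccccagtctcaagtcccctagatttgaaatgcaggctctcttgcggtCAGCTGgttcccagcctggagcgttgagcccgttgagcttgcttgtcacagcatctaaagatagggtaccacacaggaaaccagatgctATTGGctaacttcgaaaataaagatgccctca

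In these runs, all 250 bases of Olig2 and of Mcm2 and all 240 of Top2a lay inside a narrow interval, as did 195 bases of Egfr and 134 of Cspg4. No base of Mog, Opalin or Cx3cr1 did, which their class fixes, since it has no interval within 1 kb of an end. The 5 marked genes each held a GGGCGG match, and none of the other 3 did. The dinucleotide CG occurred 22 times before Olig2, 11 times before Egfr, 12 times before Cspg4, 10 times before Mcm2 and 9 times before Top2a. It occurred 2 times before Mog, 4 times before Opalin and 4 times before Cx3cr1. Top2a had 6 CCAAT matches, the most of the 8. The Olig2 interval, chr16:91224711-91226044, was 1334 bp wide with an authors' fold over background of 7.08. The Egfr interval, chr11:16752008-16752790, was 783 bp wide at 6.57-fold. The Mcm2 interval, chr6:88898376-88899037, was 662 bp wide at 8.59-fold, and that of Top2a, chr11:99023959-99024644, was 686 bp wide at 8.09-fold. The Cspg4 interval, chr9:56864665-56864987, was 323 bp wide at 3.54-fold and ended 117 bp before the gene.

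The narrow gene-end intervals had a median width of 371 bp, with quartiles of 199 and 785 bp and a lowest width of 150 bp, which 13.5% of them shared. Their folds and q values come from the same calls as the rule and are given as description only. The median fold was 4.55, with quartiles of 3.54 and 7.08. Every fold in the list was a whole multiple of 0.506 within 0.1 of a step, and the lowest, 2.53, was 5 steps, so that low intervals differ by few steps. A q of 0.05 or less was listed for 76.9% of them, for 56.9% of the 54822 narrow intervals elsewhere, and for all of the 1516 wide intervals at gene ends. Narrow intervals elsewhere had a median width of 205 bp and a median fold of 3.54, and wide ones at gene ends 1813 bp and 12.1. More than 1 summit was listed in 26.4% of the narrow gene-end intervals and in 4.66% of the narrow intervals elsewhere. The limits of the rule cut through a continuous range. The 175 members of 1450 to 1499 bp had a median fold of 11.1, and the 183 gene-end intervals of 1500 to 1549 bp just outside had 11.6. The 826 members 901 to 1000 bp from an end and the 819 narrow intervals 1001 to 1100 bp away both had a median fold of 3.54.

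Most of these intervals lay at gene starts. A strand was available for 16457 genes, and 14666 of the intervals lay at an end of one of them. Of these, 82.0% lay at 5′ ends only, 12.4% at 3′ ends only, and 5.60% at an end of each kind. At 5′ ends the best summit lay a median of 30 bp inside the span, with quartiles of -109 bp (outside) and 471 bp, and 46.2% of 13998 interval and gene pairs had it within 250 bp of the end. At 3′ ends 17.3% of 2912 pairs did. The intervals at 3′ ends only were narrower, with a median of 213 bp against 432 bp at 5′ ends only. Their median fold was 3.54 against 4.55, and 56.01% against 79.99% had a q of 0.05 or less. In width, fold and q they were close to the narrow intervals elsewhere.

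**Figure D1:**
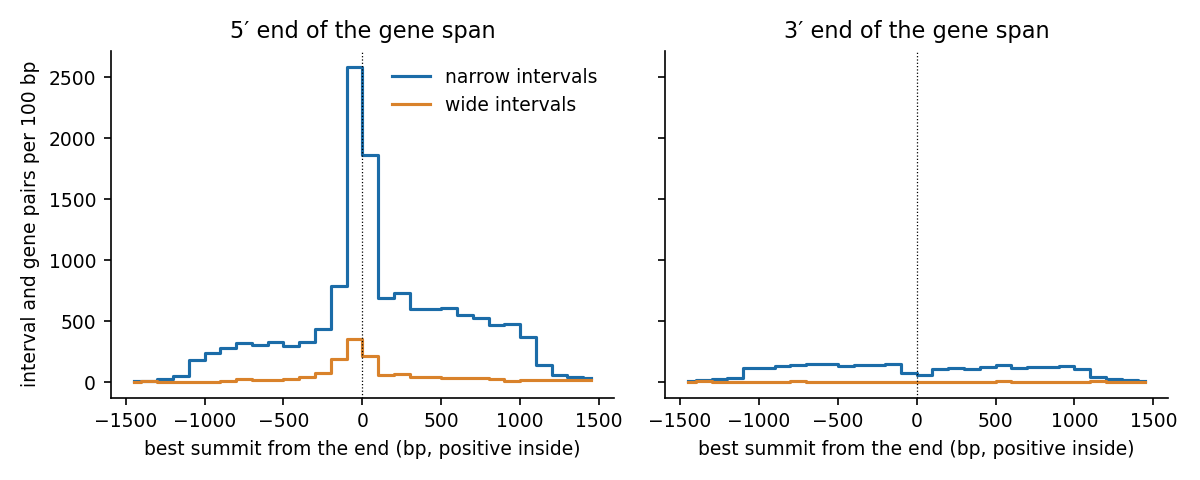
Position of the best summit of each interval from the end of the gene span it lies at, in bins of 100 bp, for 5′ ends (left) and 3′ ends (right); positive values are inside the span. Narrow intervals form a sharp peak at 5′ ends and no peak at 3′ ends, where wide intervals are nearly absent.

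Neighbouring genes shared some of the intervals. A single gene was in reach of 15573 intervals, 2540 were in reach of 2 genes and 72 of more. Among 1824 intervals at 2 genes of known strand, 1072 lay between a pair of 5′ ends, and in 1045 of these the genes were on opposite strands, the arrangement of a bidirectional promoter. The Drop-seq table listed both genes for 1001 of them. Both reached 10 CPM (UMIs per 1000000 UMIs of the library) in 49.7%, only one did in 38.3%, and neither did in 12.1%. The interval in reach of the most genes, on chromosome 18, was 1409 bp wide at 7.58-fold and lay at the shared end of 21 gamma-protocadherins and at an end of Diaph1, 25 genes in all. It was the only narrow interval of 22 of them, so their mark says nothing about their separate starts.

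Every marked gene was looked up in the RNA tables. The PDGFRa-GFP Drop-seq table, with 3184 cells and 8166699 UMIs (617 to 18886 per cell), listed 11452 of the 12064 marked genes, 1035 of the 1073 genes with only a wide interval, and 4156 of the 7528 with none. It lists no gene without a UMI, so an absent gene either had none or goes by a name that was not matched. Marked genes had a median of 15.2 CPM, with quartiles of 3.55 and 43.5. Genes with no interval had a median of 0.37 CPM, with quartiles of 0.12 and 1.59, and genes with only a wide interval had 32.9 CPM, with quartiles of 13.7 and 83.5. Over all 16643 listed genes 48.9% reached 10 CPM. This level was reached by 6761 marked genes, 59.04% (exact binomial interval 58.1 to 59.9%), by 12.5% of genes with none (11.5 to 13.6%) and by 82.1% of genes with only a wide interval (79.7 to 84.4%). The intervals here and below cover counting error over genes only. Set against all genes without a narrow interval, wide ones included, the median of log2(CPM + 1) was 4.02 against 0.69, a difference of 3.33.

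The C1 tables, in TPM, a rate of transcripts per length, gave the same order. Each listed 11747 of the marked genes. At P6 the median of the mean TPM over 53 cells was 10.7 for marked genes, 28.4 for genes with only a wide interval and 0 for genes with none. At P3, over 60 cells, the medians were 9.34, 24.05 and 0. A mean of 10 TPM was reached at P6 by 37.0% of all 19841 listed genes, by 51.2% of marked genes and by 8.32% of genes with none. At P3 it was reached by 35.0% of all listed genes, by 48.9% of marked genes and by 6.90% of genes with none. At P6 14.7% of the marked genes and 70.6% of the genes with none were listed at 0 in the mean. On the log2(TPM + 1) scale the medians of marked and of all other genes differed by 3.55 at P6 and by 3.37 at P3, where the median of the other genes was 0. Among genes above 0 the differences were 1.30 and 0.94, and by the mean over cells of log2 values they were 0.66 and 0.55. A Drop-seq CPM counts 3′ tags per molecule and a TPM is per length, so levels were not compared across tables. In the hGFAP-GFP Drop-seq library, whose table holds 815 cells where its label gives more, the marked genes had a median of 14.54 CPM and the genes with none 0.48 CPM, the same order as in the PDGFRa-GFP library.

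Read the other way, 5465 genes reached 10 CPM or TPM in all 3 PDGFRa-GFP tables. Of these 82.8% were marked, against 58.4% of all genes, 11.2% had only a wide interval, and 329, or 6.02%, had none. A marked end was thus common to most expressed genes, but 479 marked genes, 3.97%, had no value above 0 in any of the 3 tables. Among genes with none this share was 40.3%. All of these genes are absent from the Drop-seq table, so a gene under an unmatched name would count among them.

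The end that carried the interval separated the genes. The 7168 genes marked at the 5′ end only had a median of 15.9 CPM, and the 1389 marked at both ends 14.9 CPM. The 393 genes marked at the 3′ end only had a median of 0.61 CPM (interval 0.49 to 0.73) and of 0 TPM at both C1 stages. At least 10 CPM was reached by 60.7% of the first, 60.4% of the second and 16.5% of the third. The 5990 genes of known strand with no interval had a median of 0.37 CPM and 12.7% at 10 CPM. These sets leave out genes with a wide interval. Genes marked only at the 3′ end were shorter, with a median span of 12.2 kb against 25.3 kb for those marked only at the 5′ end, and their intervals had lower folds as given above. The part of length and fold in this difference was not tested.

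**Figure D2:**
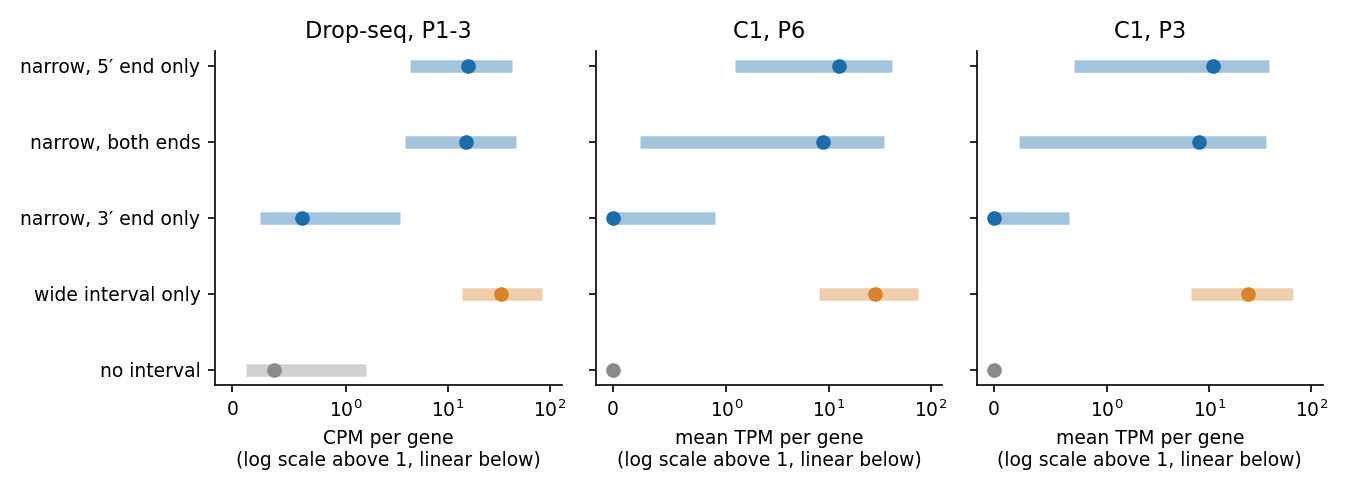
Level per gene by the interval at its ends, in the PDGFRa-GFP Drop-seq library and the C1 sets; points are medians and bars span the quartiles, over the genes each table lists. Genes with a narrow interval at the 3′ end only lie near the genes with no interval, and genes with only a wide interval lie highest of the sets drawn.

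The level rose with the fold of the gene's best interval. Among marked genes without a wide interval, the 267 with a best fold under 3 had a median of 0.86 CPM, and 18.4% of those listed reached 10 CPM. At folds of 3 to 4 and 4 to 5 the medians were 1.47 and 4.04 CPM. At folds of 5 to 7 the median was 12.9 CPM, at 7 to 10 it was 21.4, and at 10 to 15 it was 26.4. Of the 603 genes at 15 or more 77.9% of those listed reached 10 CPM, against 76.1% at folds of 10 to 15. The C1 medians at P6 went from 0 TPM under a fold of 3 to 17.4 at folds of 7 to 10, 21.8 at 10 to 15 and 21.2 at 15 or more. At P3 they went from 0 TPM to 16.6, 20.6 and 25.2, so they were still higher in the top group. The number of intervals at a gene's ends did not order the genes in this way: 6093 genes with 1 interval had a median of 14.1 CPM, 3894 with 2 had 16.2, and 428 with 4 had 14.51.

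**Figure D3:**
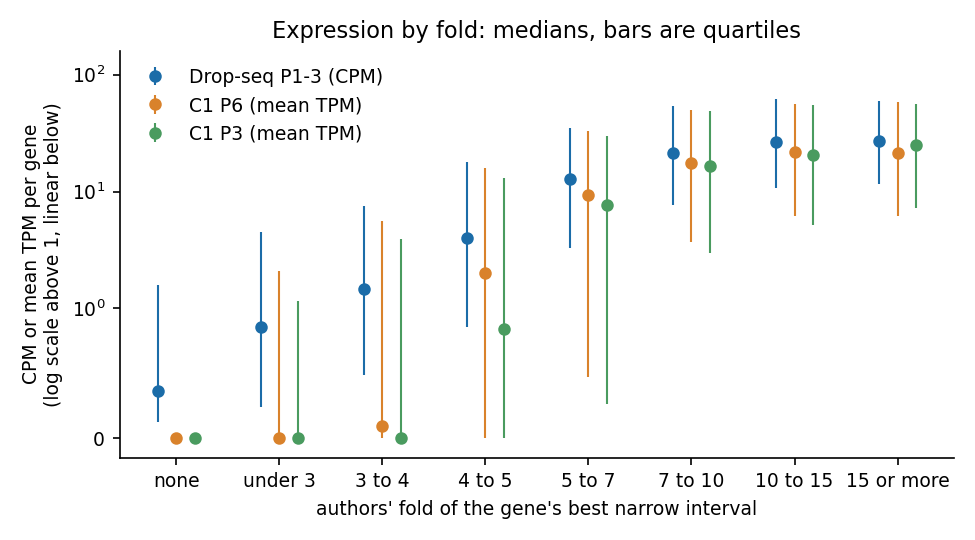
Median level per gene, with bars spanning the quartiles, by the authors' fold of the gene's best narrow interval, for genes without a wide interval, and for genes with no interval. The medians climb between folds of 3 and 10 in all 3 tables, and in the top group the P3 median is higher still at 25.2 TPM while the P6 median is not.

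The contrast was also read by gene length. Genes were put in 4 groups of equal size by length. In the shortest group, up to 5.93 kb, 37.8% were marked, and the medians were 14.9 CPM for marked genes and 0.24 for genes without a narrow interval. In the longest group, above 45.02 kb, 68.6% were marked, and the medians were 12.98 and 4.65 CPM, a smaller gap than in the shortest group. Genes without a narrow interval here include those with only a wide one. These had a median span of 32.8 kb and a median of 32.9 CPM, against 9.47 kb and 0.37 CPM for genes with none. Their part in the smaller gap was not tested. The share of marked genes by chromosome ran from 45.6% on chromosome 7 to 65.8% on chromosome 8. Without the 1458 olfactory and vomeronasal receptor genes, 417 of which lie on chromosome 7, it ran from 55.1% on chromosome 14 to 68.4% on chromosome 2.

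The sequence at the starts of marked genes differed from that of the others. RefSeq windows of 300 bases, 250 before and 50 after a start, were matched to 16457 genes. For each gene the window nearest the 5′ end of its span was read, and in 9841 genes that window starts at the span's end. The median GC content was 61.0% in 9581 marked genes, 66.3% in 886 genes with only a wide interval and 48.7% in all 6876 genes without a narrow interval. The ratio of observed to expected CG dinucleotides had a median of 0.75 in marked genes, 0.85 in genes with only a wide interval and 0.19 in the 5990 genes with none. A GC content of at least 50% together with a ratio of at least 0.6, the usual marks of a CpG island, was met by 67.4%, 84.9% and 9.52%, and by 47.3% of all windows. Genes marked only at the 3′ end stood between, with a median ratio of 0.28 and 21.4% island-like windows.

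Short strings split the same way. GGGCGG was in 64.02% of the windows of marked genes, in 16.1% of those of genes with none, and in 47.3% of all windows. CCGGAAG was in 17.4% and 3.79%, and in 12.3% of all. GCGCATGC was in 5.26% and 0.92%, and in 3.66% of all. TATAAA went the other way, with 7.13% of marked genes, 25.0% of genes with none and 13.5% of all. ACAATG was also rarer in marked genes, with 6.78%, 17.2% and 10.6% of all. The values for CCAAT (38.2%, 39.8% and 39.1%) and AAGATGG (6.96%, 5.71% and 6.40%) were close to each other. CAGCTG was in 15.9% of the windows of genes with none and in 15.2% of all. The GC content of the windows was not held fixed, and its part in these shares was not tested.

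CpG content and RNA were then read together. Where the CG ratio was 0.8 or more, 83.5% of the genes at 10 CPM or more were marked and 82.0% of the genes below 10 CPM or not listed. Where the ratio was under 0.2, 52.3% of the genes at 10 CPM or more were marked and 11.3% of the others. Between ratios of 0.4 and 0.6 the shares were 86.4% and 58.8%. In CG-rich windows a narrow interval was thus about as common at genes with little RNA as at genes with more. Genes with only a wide interval count as not marked here. Their median ratio was 0.85 and 82.1% of those listed reached 10 CPM. The near-equal shares are for narrow intervals only, and shares for intervals of any width were not computed by CG ratio. In CG-poor windows a narrow interval went with RNA.

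**Figure D4:**
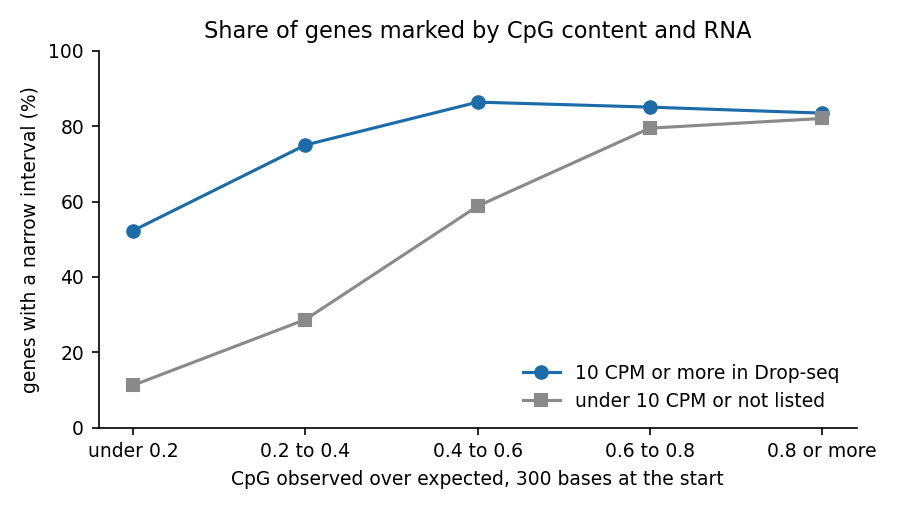
Share of genes with a narrow interval at an end, by the ratio of observed to expected CG dinucleotides in the 300 bases at the start, for genes at 10 CPM or more in the PDGFRa-GFP Drop-seq library and for the others. The lines meet at high ratios, near 83.5% and 82.0%, and lie far apart at low ratios. Genes with only a wide interval count as having no narrow one.

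Gene lists place these values in the cells at hand. Of 15 oligodendrocyte precursor genes 14 were marked, against 58.4% of all genes and 82.8% of those at 10 CPM or TPM or more in all 3 tables. The last, Ptprz1, a receptor phosphatase, had only a wide interval. The marked precursor genes with the most UMIs were Olig1 at 791 CPM (Poisson interval 772 to 811), Cacng4 at 480 CPM (465 to 495), Olig2 at 285 CPM (274 to 297) and Cspg5 at 227 CPM (217 to 238). The median best fold of the 14 genes was 4.80. Pdgfra, the gene of the reporter, had a pair of narrow intervals at its start, chr5:75150514-75151666 at 4.04-fold and chr5:75151975-75152377 at 3.54-fold, and 141 CPM (133 to 149). Over the 53 P6 cells its lowest, median and highest TPM were 0, 12.6 and 2013, and 27 cells reached 10 TPM. Over the 60 P3 cells they were 0, 0 and 803, and 11 cells reached 10 TPM. So most P3 cells of this sort were listed at 0 for it. Sox10 had 1 interval, chr15:79164236-79164385, at the lowest fold in the list, 2.53, and 80.4 CPM (74.4 to 86.8). Its TPM had a median of 35.9 and a highest value of 543 at P6, and a median of 0 and a highest value of 541 at P3. This interval would not pass a q of 0.05.

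Genes that mark early glial progenitors were marked in 7 of 8 cases, and Gadd45g, a stress-response gene, had only a wide interval. Hes6 and Dll3 had 126 and 115 CPM. Egfr was at 23.1 CPM (19.96 to 26.7), with a median of 0 and a highest value of 413 TPM at P6 and a median of 0 and a highest value of 350 at P3. Zfp36l1, an RNA-binding protein that shortens the life of its target messages, had 3 narrow intervals at its 5′ end, of which chr12:80112735-80113226 had the highest fold, 6.07. It was at 160 CPM (151 to 169), with a median of 26.7 TPM at P6 and 0 at P3, and 31 of 53 against 11 of 60 cells at 10 TPM. All 13 radial glia genes were marked, led by Fabp7, a fatty acid binding protein, at 2375 CPM, Ptn at 1366 CPM and Dbi at 1097 CPM. In the Notch pathway 16 of 18 genes were marked and the other 2, Hey1 and Maml1, had a wide interval. Of 16 receptor tyrosine kinases 15 were marked, and Igf1r had a wide interval. The marked share was 58.4% over all genes and 82.8% over genes at 10 CPM or TPM or more in all 3 PDGFRa-GFP tables. Most genes of these lists reached 10 CPM, so their high shares are not read as particular to them.

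In the lists of later oligodendrocytes and of astrocytes the marked shares were near the 58.4% of all genes and are no result about these lists. Of 11 genes of committed oligodendrocytes 6 were marked, among them Bcas1 at 198 CPM, Sirt2 at 195 CPM and Gpr17 at 91.1 CPM. Fyn had a wide interval, and Nkx2-2, Enpp6, Bmp4 and Neu4 had none. Their levels ran from 9.06 CPM for Neu4 to 24.2 CPM for Nkx2-2, and Nkx2-2 has another listed start inside its span with an interval in reach. Of 11 myelin genes on these chromosomes 5 were marked: Mbp at 152 CPM, Ugt8a at 44.9, Cldn11 at 21.7, Ermn at 5.02 and Myrf, a transcription factor of myelination, at 4.29. Cnp had a wide interval and 134 CPM. Mag, Mog, Mobp, Opalin and Aspa had none. Mag was at 16.4 CPM, Mog at 1.22 and Mobp at 0.24, and Opalin was not listed in Drop-seq and was at 0 in every C1 cell. Of 15 astrocyte genes 10 were marked. Gfap had a 150 bp interval at 3.54-fold inside its start and 4.53 CPM (3.19 to 6.24), with 1 of 53 cells at 10 TPM at P6 and 0 of 60 at P3. Among the 5 astrocyte genes with none, Apoe reached 446 CPM, with an interval at another listed start, and S100b and Gja1 were at 46.04 and 16.4 CPM.

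Genes of other cell types were split, where 58.4% of all genes and 82.8% of those at 10 CPM or TPM or more in all 3 tables were marked. Of 12 neuron genes 10 were marked, with Stmn2 at 1163 CPM, Tubb3 at 812 and Rtn1 at 650, and Rbfox3, at 7.47 CPM, had none. Of 10 interneuron and neuroblast genes 9 were marked, with Dlx1 at 606, Dlx2 at 282 and Gad2 at 271 CPM. Of 10 genes of excitatory neurons and their precursors 7 were marked, near the 58.4% of all genes. Of these 7, Bcl11b was at 67.5 CPM and the other 6 at 4.16 CPM or less. Fezf2, a transcription factor of deep-layer neurons, had 3 narrow intervals, a best fold of 7.08 and 7 UMIs (0.86 CPM). Of 12 genes of microglia and macrophages 1 was marked, P2ry12, at the lowest fold of 2.53 and 1.84 CPM. The other 11 had no interval, although C1qc and C1qb were at 14.3 and 12.7 CPM. Of 10 choroid plexus and ependymal genes 4 were marked. Ttr, the most abundant protein of choroid plexus cells, had 10016 CPM, no interval, and 0 in every C1 cell. Of 6 red cell genes 1 was marked. The globin genes Hbb-bs, Hba-a1, Hba-a2 and Hbb-bt had 96.1 to 130 CPM, no interval, and 0 in every C1 cell, and reads of near-identical globin copies cannot be told apart. RNA of Ttr, the globins and C1qb was thus in the Drop-seq library alone of these tables, and the share of other cells in each assay was not tested.

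Genes of cell division and of basic cell functions were mostly marked, against 58.4% of all genes and 82.8% of those at 10 CPM or TPM or more in all 3 tables. All 18 S phase and all 19 G2 and M phase genes were marked, with median best folds of 8.85 and 8.59, against 4.80 for the precursor genes. Pcna, the clamp of DNA replication, was at 368 CPM, and Cenpf, a centromere protein, at 445 CPM. Of 40 spliceosome genes 39 were marked, of 43 genes of respiratory complex I and its assembly 41, of 78 mitochondrial ribosomal protein genes 71, and of 38 proteasome genes 33. The proteasome share, 86.8%, and the cytosolic ribosomal share, 88.1%, were near the 82.8% of expressed genes and are no result about these lists. Of 84 cytosolic ribosomal protein genes, paralogs included, 74 were marked, with a median of 1360 CPM over those 74. Their C1 values were not compared, since many are not listed there, and ribosomal protein genes share sequence with pseudogenes. The 12 marked genes with the highest CPM were Actb, Ptma, Tuba1a, Rps26, Tmsb10, Rps29, H3f3b, Rpl41, Hsp90ab1, Hmgn2, Tubb5 and Fabp7. Their levels ran from 2375 CPM for Fabp7 to 5988 CPM for Actb. Of these 7 also had a wide interval at an end: Actb, Ptma, Tuba1a, Tmsb10, Hsp90ab1, Hmgn2 and Tubb5. In Ptma, a small acidic nuclear protein, the wide interval covered the 5′ end at 22.2-fold, and the narrow ones lay at the 3′ end at 3.54-fold. In Hmgn2, a nucleosome-binding protein, the wide interval covered the 5′ end at 8.59-fold, and the best narrow one lay at the 3′ end at 3.03-fold. Rps26, a ribosomal protein gene, had no wide interval and a narrow one at its 5′ end at 11.1-fold. H3f3b, a histone gene, had a single interval, at the 3′ end at 3.54-fold.

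Gene families used in other tissues were mostly unmarked, where 58.4% of all genes were marked. Of 1100 olfactory receptor genes 6 were marked (0.55%), of 352 vomeronasal receptor genes 3 (0.85%), of 42 beta-defensin genes 0, of 53 keratin genes 7, and of 93 cytochrome P450 genes 20. Hox genes, which pattern the trunk and hindbrain, were marked in 15 of 39 cases, with a median best fold of 3.03 and at most 0.61 CPM, so their marks were low. Of 57 clustered protocadherin genes 23 were marked, and 21 of those 23 lie at the shared end described above.

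**Figure D5:**
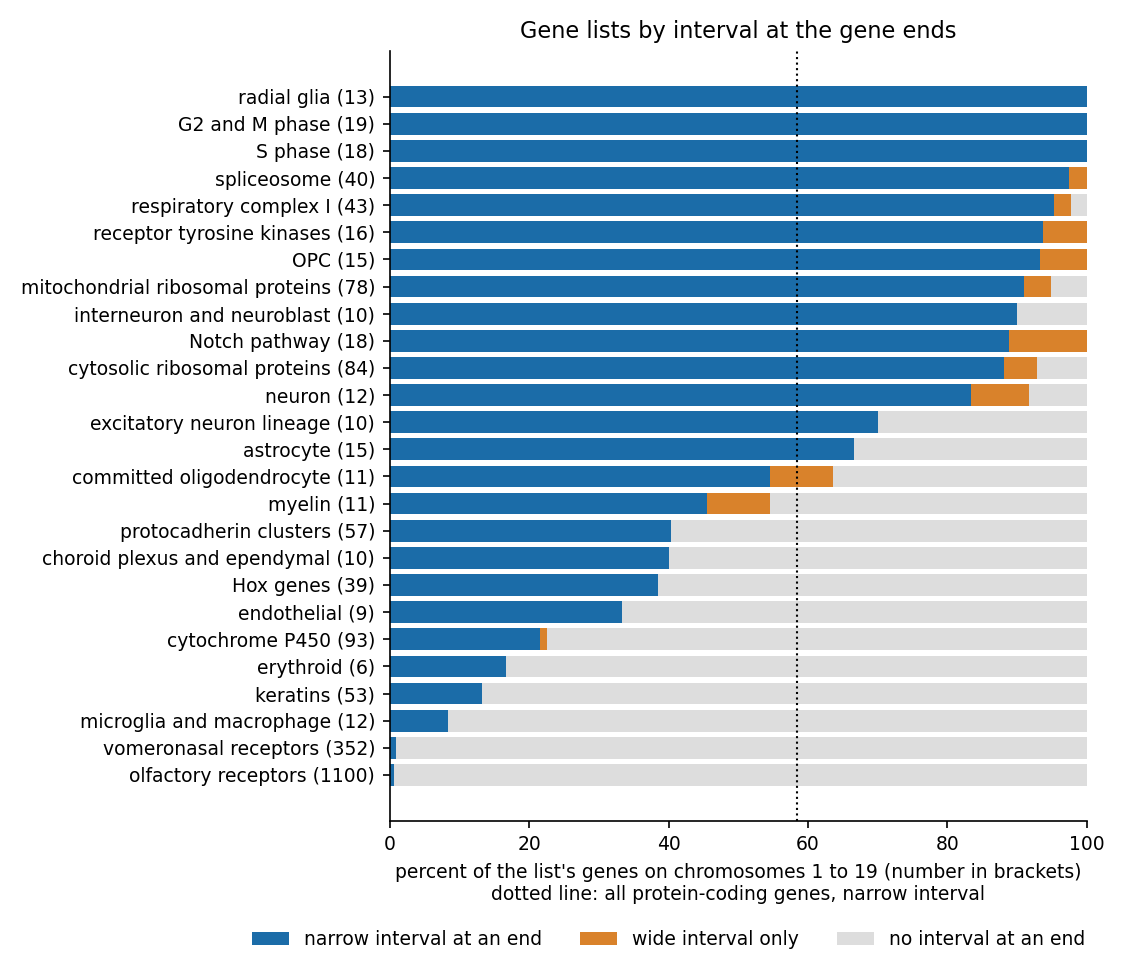
Share of each gene list with a narrow interval at an end, with only a wide interval and with none; the number of genes on chromosomes 1 to 19 is in brackets and the dotted line is the share of all protein-coding genes with a narrow interval. Cell division, splicing, respiration and precursor genes lie to the right of the line, and microglia, red cell and olfactory receptor genes to the left.

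The intervals of the highest fold and the genes with the most intervals were not those with the most RNA. The top interval, chr3:159939331-159939742, had a fold of 66.7 and lay 665 bp from the 3′ end of Wls, a carrier of Wnt proteins, which had 43.2 CPM. The next, chr9:123461834-123462253, had a fold of 40.4 and lay 422 bp from the 3′ end of Lars2, a mitochondrial tRNA synthetase, which had 7.96 CPM. The other 8 of the top 10 lay at 5′ ends with folds of 24.3 to 28.8, and 3 of them were each shared by a pair of genes. Their genes had from 1 UMI, for Tsks, which shares its interval with Ap2a1, to 178 CPM, for G3bp1, a stress granule protein. Zfp703, a transcriptional repressor, and Rgs16, a regulator of G protein signalling, had 8 narrow intervals each and 4.78 and 56.9 CPM. Pacsin3, Rpl36 and Spryd3 had 7 each and 22.7, 961 and 9.80 CPM. Frat1, described next, also had 7.

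Marked genes without a value above 0 and expressed genes without a mark formed the exceptions. The 5 marked genes of the highest fold that were not listed in the PDGFRa-GFP Drop-seq table and were at 0 in every C1 cell were Cnga4, Frat1, Gm13272, Gm13276 and Ovol3, at folds of 15.7, 13.6, 13.1, 12.6 and 11.6. Cnga4 is a subunit of the olfactory channel, and Frat1 a regulator of Wnt signalling. The interval of Ovol3, a zinc finger gene, lay at its 3′ end. On the other side, the 12 genes with no interval and the highest CPM were Ttr, Rps27rt, Ybx1, Fth1, Gnas, Cox7a2, Rpl17, Hnrnph1, Tcf25, Apoe, Metap2 and Cox5a. Rps27rt is a retrogene copy of a ribosomal protein gene, so its 2262 CPM may be reads of its parent. Ybx1, an RNA-binding protein, was at 1125 CPM and Fth1, the heavy chain of ferritin, at 770 CPM. Of 418 genes of known strand with no interval at an end and 10 CPM or more, 318, or 76.1%, had another start listed in RefSeq with an interval of any width within 1 kb of it. Of all 5990 genes of known strand with none, 10.6% did. Ybx1, Fth1, Gnas, Cox7a2, Hnrnph1, Tcf25, Apoe, Metap2 and Cox5a were among them, so for these the end of the span is not the open start.

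Within PDGFRa-GFP cells, P6 and P3 were compared by the log2 ratio of mean TPM. Each stage is 1 separately titled series of C1 cells, so stage and series cannot be told apart. A pseudocount of 1 was added, and a gene entered when its mean reached 1 TPM at either stage. Of the 12064 marked genes 9184 passed this limit. At least 2-fold higher values at P6 were found for 2479 of them, 26.99%, against 28.5% of all 11369 genes compared. At least 2-fold higher values at P3 were found for 1970, 21.5%, against 20.8% of all genes. Both shares are near those of all genes and are no result about the marked genes. Genes with no interval had 42.4% higher at P6 and 19.3% higher at P3, of 1210 compared. As a class they were near 0, with an upper quartile of 0.04 mean TPM at P6 and 0 at P3. The part of low level in their shares was not tested. The C1 cells had a median of 5591 rows above 0 at P6 and 4124.5 at P3, which goes with the contrast, and its part was not tested.

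By list, 11 of 15 precursor genes were at least 2-fold higher at P6 and 0 at P3. Of 19 G2 and M phase genes 14 were at least 2-fold higher at P3 and 0 at P6, and of 18 S phase genes 10 and 0. Over all genes compared, 28.5% were higher at P6 and 20.8% at P3. The list calls were not repeated by the mean of log2 values. By that summary the 2479 and 1970 marked genes called higher at P6 and at P3 became 761 and 413. Neuron genes had a median of 107 TPM at P6 and 168 at P3, interneuron and neuroblast genes 29.2 and 83.1, and precursor genes 152 and 50.5. So the sets differed in their markers of cell types, and cell makeup and level per cell cannot be told apart. Among marked genes at 10 TPM or more, the largest ratio to P6 was that of Cwc22, a splicing factor, with a mean of 150 TPM and 33 of 53 cells at 10 TPM against 0.85 TPM and 2 of 60 cells. Ifngr1, Sned1, Ctsh, Arsg, Dpyd, Arpc1b, Zfp939, Ier3 and Unc80 followed, with 2 to 10 of 53 cells at 10 TPM, so these ratios rest on few cells. The largest ratio to P3 was that of Cacng5, with 75.7 TPM in the mean and 9 of 60 cells at 10 TPM against 0.22 TPM and 0 of 53 cells. Zfp354b, Chodl, Pdlim7, Prokr2, Thoc6, Casq1, Nudt1, Ccdc130 and Tle6 followed. Of these Pdlim7, a scaffold protein of the actin cytoskeleton, had 26 of 60 cells against 2 of 53, and the others 2 to 11 of 60 cells.

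Against the hGFAP-GFP Drop-seq library, 9664 marked genes had at least 20 UMIs over both libraries. At least 2-fold higher CPM in PDGFRa-GFP cells was found for 409 of them, 4.23%, against 4.63% of all 11851 genes compared, with counts under 3 UMIs set to 3. At least 2-fold lower CPM was found for 933, 9.65%, against 11.0% of all genes. Genes with no interval had 9.08% higher and 27.8% lower, of 1189 compared. As a class they had low levels, with medians of 0.37 CPM in the PDGFRa-GFP library and 0.48 CPM in the hGFAP-GFP library. The part of low level in their shares was not tested. Strain and age change together in this pair, and neither can be told apart from the other or from the library. Olig1 had 791 CPM in the PDGFRa-GFP library and 324 in the other, Pdgfra 141 and 88.4, Egfr 23.1 and 69.4, and Gfap 4.53 and 56.2.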

How the data were processed

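The members, gene classes and lists were chosen with earlier results of these data known. The authors deposited 1 pooled ATAC-seq peak list with a fold ratio over background, and −log10 p and q per summit. The submitters' processing notes name CASAVA, Bowtie2, MACS2 2.12 and HOMER and the builds rn5 and mm10; the roles of the builds and the calling threshold are not given in the sources used here. Summits of the same interval were joined, keeping the best fold and q. Gene spans, strands and promoter windows are from RefSeq (GRCm38.p6), and the intervals were read as mm10.

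The deposited Drop-seq values are a scaled signal per cell (to 10000), with STAR named by the submitters' processing notes. Each cell's values were divided by its smallest step, which gave whole numbers within 0.1 for 100% of values, taken as UMIs, summed, and expressed per 1000000 (CPM). C1 values are TPM as deposited by the authors, whose processing notes name RSEM; their depth is unknown. Rows were matched by symbol, or by a synonym of 1 gene only (997 genes in the PDGFRa-GFP Drop-seq table, 1086 in the hGFAP-GFP one and 855 in the C1 table).

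No test was run, since no group has replicates. CPM intervals are exact Poisson and shares exact binomial at 95%, covering counting error only; intervals of medians are binomial order statistics. The steps were tested on simulated data. Named genes were the list members of highest CPM, the 12 marked and 12 unmarked genes of highest CPM (without mitochondrial, haemoglobin and predicted genes), the 10 intervals of highest fold, the 5 genes with the most intervals, the 10 largest ratios of P6 to P3 each way, the 5 marked genes of highest fold not listed in Drop-seq and at 0 in C1, and Pdgfra, Olig1, Olig2, Sox10, Egfr, Zfp36l1 and Gfap. Other list members named as exceptions (Fezf2 among them) were chosen after their values were seen. S6 kinase genes and Rps19bp1 were taken out of the ribosomal list once its members had been seen. No doublet caller was run on the Drop-seq cells. Alternatives changed the width, reach, q, pseudocount, filters and summaries. Analysis used python 3.11.15, pandas, numpy and scipy. Some genes are not reported here.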

Additional observations from a re-analysis of the deposited data

Results flagged for a closer look

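The rule leaves out chromosomes X, Y and M, where the list holds 1412 intervals, a signal in data the report's comparisons do not use. Of these 1318 lie on X, 93 on Y and 1 on M. The interval on M is 16299 bp wide with a fold of 257.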

How the results depend on the processing

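No paired analysis was possible because no test was run and no group has replicate libraries that share a number. No alternative changed the direction of the median differences. At both C1 stages the median of genes without a narrow interval was 0, and against a median of 0 a difference cannot be negative. The direction of the ratios was not checked, only the counts of genes called. The share of marked genes, 58.4%, became 50.5% at a width under 1000 bp, 63.1% under 2500 bp, 53.3% within 500 bp, 64.4% within 2 kb, 22.2% at a −log10 q of 10 or more, 56.8% by the summit, 54.8% at the 5′ end only and 46.97% with no other span within 5 kb. By alternatives chosen after seeing the data it became 53.5% at a q of 0.05 or less, 61.7% with starts inside the span and 62.8% without olfactory and vomeronasal receptors. The Drop-seq difference, 3.33, became 2.18, 3.66, 3.16, 3.54 and 2.33 in the order of the first 5 alternatives, 3.42 with inner starts, 3.12 without the receptors, 3.57 against genes with none alone, 4.42 and 1.25 at pseudocounts of 0.1 and 10, and 3.69 with unlisted genes as 0. The P6 difference, 3.55, became 3.36 and 3.66 by width, 3.63 within 500 bp, 4.27 by −log10 q, 3.74 at the 5′ end, 3.35 for isolated genes and 3.69 at a q of 0.05. It became 6.76 and 1.05 at the pseudocounts, 1.30 among genes above 0, 3.45 with unlisted genes as 0 and 0.66 by the mean of log2 values. The P3 difference, 3.37, became 3.17, 3.49, 3.46, 4.38, 3.57, 2.94, 3.54, 6.56, 0.95, 0.94, 3.25 and 0.55 in the same order. The 2479 marked genes higher at P6 became 1146 at a pseudocount of 10 and 761 by the mean of log2 values, and the 1970 higher at P3 became 929 and 413. With at least 100 UMIs the 409 and 933 became 217 and 405, where fewer genes were compared. For the other changes the cause was not tested. Depth limits Drop-seq genes of few UMIs, and C1 depth is unknown.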
